A study of Homo sapiens with 12 samples.

Results

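Divergent promoter transcripts, RNAs that start beside a protein-coding gene and run away from it on the opposite strand, were followed in a pair of gastric cancer cell lines in which the zinc-finger gene ZNF165 had been lowered or raised. A member was a gene whose current symbol ends in -DT, matched by Ensembl identifier, with a summed read count of at least 100 over all 12 libraries. This gave 189 members out of 577 genes with such a symbol and out of 50868 identifiers in the table. Their summed counts had a median of 289, and 27 members had at least 1000 counts. Members were thus chosen by their summed count, and their overall level is a description. Just inside the threshold lay ISL1-DT with 102 counts and CEP83-DT with 108, and just outside lay FZD4-DT with 99 and MAP3K2-DT, SUCLG2-DT and ZNF230-DT with 97 each.

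At most mammalian promoters RNA polymerase starts in both directions from neighbouring initiation sites, one leading into the coding gene and the other upstream of it. The upstream transcript usually stays short, because it meets early polyadenylation signals and few U1 snRNP binding sites, and the nuclear exosome degrades much of it. Some upstream transcripts are spliced, stable enough to be annotated as genes, and carry the name of their coding neighbour with the ending -DT. A shared start region is the reason for comparing each member with its coding partner, the gene named before the -DT.

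The 4 groups had 3 libraries each of total RNA. MKN28 and MKN45 are established human gastric cancer lines. MKN28 controls (genotype WT) had received the lentivirus LV-Control, and MKN28 knockdown cells LV-ZNF165-siRNA. MKN45 controls (genotype WT) had received LV-Control too, and MKN45 overexpression cells LV-ZNF165, so every group had been transduced. For knockdown replicates 2 and 3 the description field reads ZNF166 and ZNF167, but the genotype field, which was followed, reads ZNF165. No label says that replicates were separate cultures or clones, so the spread behind each p-value may be technical. Each library is a bulk of cells, so a lower count from fewer expressing cells and from less RNA per cell cannot be told apart.

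Library totals ran from 12075813 to 19548445 counts, and 3 counts corresponded to 0.153 to 0.248 CPM, the count scaled to a common library total. The epithelial markers EPCAM, CDH1, KRT8, KRT18 and KRT19 had at least 416 counts in every library, PTPRC of leukocytes at most 3 and PECAM1 of endothelium at most 10, while COL1A1, a fibroblast collagen, had 271 to 2090 and COL1A2 at most 10. Some markers shifted with the knockdown: CDH1 was at 351 to 446 CPM in MKN28 controls and 34.4 to 96.7 in the knockdown, KRT8 at 2633 to 3751 and 8839 to 24871, and COL1A1 at 88.8 to 122 and 23.9 to 43.1. Their part in the members' changes was not tested. ZNF165 had 262, 186 and 287 counts in the MKN28 controls and 74, 40 and 22 in the knockdown libraries, with a log2 fold change of -1.47 (edgeR quasi-likelihood test, adjusted p = 0.0459). The call was lost with knockdown replicates 2 and 3 left out (-1.09, adjusted p = 0.198), without control replicate 1, 2 or 3 (adjusted p = 0.154, 0.0604 and 0.155) and in 4 of the other settings run. In MKN45, ZNF165 had 156, 140 and 277 counts in control and 2115, 1977 and 1909 in overexpression libraries (3.09, adjusted p = 0.0109). That call was lost without overexpression replicate 1 (3.05, adjusted p = 0.0662) or 2 (3.12, adjusted p = 0.0707). Knockdown libraries 2 and 3 stood apart from the others. They had counts for 154 and 157 members, against 180 in knockdown library 1 and 180 to 189 in each of the remaining libraries. They had 17620 and 17504 genes with a count, against 20425 to 22579 elsewhere, and a Spearman's rho of log2 CPM with GC content across genes of 0.344 and 0.336, against -0.115 to 0.157 elsewhere.

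Of the 189 members, 188 had their partner in the table, and ARHGAP11B-DT did not. In GENCODE 29 on GRCh38 every one of the 188 partners was protein coding and lay on the opposite strand. The starts of member and partner were a median of 161 bases apart, within 500 bases in 151 pairs and over 2000 bases apart in 7. Annotated spans overlapped in 57 pairs and did not in 131, and exons shared bases in 50. In addition, 47 members shared exon bases with a gene other than their partner. The strand setting of the counting is not given in the sources used here, so reads of overlapping pairs cannot be assigned with certainty and counts are also given for the 131 separate pairs. GENCODE 29 classed 91 members as antisense, 82 as lincRNA, 11 as processed transcript, 4 as bidirectional promoter lncRNA and 1, IRX2-DT, as protein coding. Members were short, with a median exon length of 2055 bases against 5348 for partners and 4415 for all genes with at least 100 counts.

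RefSeq promoter windows on GRCh38.p14, from 250 bases before to 50 after a start, were matched by symbol for 149 members (165 windows). In 100 of the 140 pairs in which both genes had a window, the partner's start lay inside the member's window. Member windows held a median of 31 CG dinucleotides and 69.0% GC, partner windows 29 and 67.0%, and all 35116 windows 14 and 58.7%. GGGCGG, read on both strands like every motif here, was in 73.3% of member windows and 45.0% of all windows. CCGGAAG was in 25.5% and 10.3%, and CCAAT in 34.5% and 34.6%. TATAAA was in 4.85% and 11.5%, the polyadenylation hexamer AATAAA in 6.67% and 17.4%, and the splice donor word GGTAAG in 6.06% and 8.02%. These shares describe letters in a window of 300 bases, and windows rich in GC hold GC-rich words more often.

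The next windows belong to members the results turn on: MBTPS1-DT, ZNF426-DT and TBC1D22A-DT rose in the knockdown and EOLA2-DT fell. Each is written in the direction of the member's transcription, and capitals mark a motif from the list above on either strand. The partner's start lay 101, 21, 122 and 57 bases from the member's in RefSeq, in the order shown.
MBTPS1-DT, chr16:84116793-84117092, plus strand, no listed motif: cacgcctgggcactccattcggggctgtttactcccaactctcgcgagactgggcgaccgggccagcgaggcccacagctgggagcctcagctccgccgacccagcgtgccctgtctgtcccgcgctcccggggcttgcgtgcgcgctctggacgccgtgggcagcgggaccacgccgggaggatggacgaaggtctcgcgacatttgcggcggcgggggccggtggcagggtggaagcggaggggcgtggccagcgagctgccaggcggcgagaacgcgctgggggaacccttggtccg
ZNF426-DT, chr19:9538416-9538715, plus strand, TATAAA in capitals: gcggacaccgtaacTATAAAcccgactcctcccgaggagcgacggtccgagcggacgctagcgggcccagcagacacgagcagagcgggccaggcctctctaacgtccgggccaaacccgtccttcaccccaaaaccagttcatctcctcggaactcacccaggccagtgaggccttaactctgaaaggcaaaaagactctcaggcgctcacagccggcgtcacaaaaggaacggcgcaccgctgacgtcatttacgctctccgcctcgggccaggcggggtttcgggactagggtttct
TBC1D22A-DT, chr22:46762479-46762778, minus strand, 3 matches to CCGGAAG in capitals, 1 of them overlapping another on the opposite strand: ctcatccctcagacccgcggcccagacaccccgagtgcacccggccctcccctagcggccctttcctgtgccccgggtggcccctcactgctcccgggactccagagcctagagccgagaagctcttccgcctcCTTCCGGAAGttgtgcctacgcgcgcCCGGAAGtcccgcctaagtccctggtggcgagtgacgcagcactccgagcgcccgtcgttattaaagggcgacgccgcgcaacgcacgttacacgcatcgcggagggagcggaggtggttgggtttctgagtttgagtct
EOLA2-DT, chrX:149938298-149938597, plus strand, no listed motif: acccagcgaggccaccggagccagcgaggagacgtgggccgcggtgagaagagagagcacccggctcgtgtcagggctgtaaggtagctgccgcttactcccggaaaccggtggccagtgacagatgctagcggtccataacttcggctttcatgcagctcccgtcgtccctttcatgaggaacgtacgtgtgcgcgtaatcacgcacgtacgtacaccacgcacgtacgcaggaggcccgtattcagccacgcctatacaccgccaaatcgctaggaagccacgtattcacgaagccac
The windows held 36, 28, 31 and 31 CG dinucleotides, at or near the members' median. None of the listed words was common to all of them.

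Members took a small share of each library. Per unit of exon length, the median member reached 0.726 CPM per kilobase in MKN28 controls and the median partner 9.75. Within pairs the member's level per length was a median of 6.75% of the partner's in MKN28 controls, 14.5% in the knockdown, 11.8% in MKN45 controls and 9.93% with overexpression. The member was above its partner per length in 13, 52, 24 and 16 of the 188 pairs in the same order. The summed counts of members per 100 counts of their partners were 2.53, 2.90 and 2.29 in the MKN28 controls (2.58 ± 0.306, SD, n = 3) and 4.36, 4.49 and 5.42 in the knockdown libraries (4.76 ± 0.577). They were 3.36, 3.89 and 3.62 in the MKN45 controls (3.62 ± 0.265) and 2.85, 3.23 and 3.13 with overexpression (3.07 ± 0.196). In MKN28 all knockdown libraries were above all controls, and in MKN45 all overexpression libraries were below all controls. The members' own share of library counts overlapped in both arms. It was 0.05169, 0.04624 and 0.04501% in MKN28 controls and 0.06672, 0.04301 and 0.05811% in the knockdown. In MKN45 it was 0.05783, 0.05178 and 0.06045% in controls and 0.04917, 0.05692 and 0.05644% with overexpression. Summed partner counts, not scaled, were 297726 to 359073 in MKN28 controls and 129492 to 230905 in the knockdown. The balance between long and short genes moved at the same time: Spearman's rho between log2 CPM and exon length, across genes of one library, was 0.259 to 0.336 in MKN28 controls, 0.011 to 0.087 in the knockdown, 0.198 to 0.317 in MKN45 controls and 0.358 to 0.367 with overexpression. Its part in the summed ratios was not tested.

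**Figure D1:**
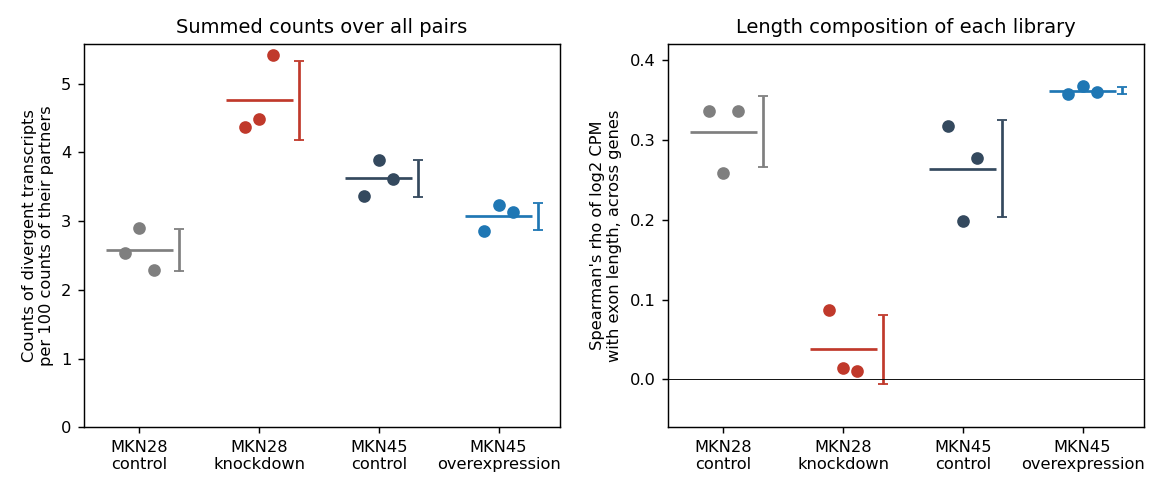
Left, summed counts of the 188 paired divergent transcripts per 100 counts of their partners. Right, Spearman's rho of log2 CPM with exon length across genes. Each point is a library, lines are group means and bars ± 1 SD (n = 3); the knockdown libraries are highest on the left (4.36 to 5.42) and lowest on the right (0.011 to 0.087).

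The first comparison asked how members changed when ZNF165 was lowered in MKN28. Of the 149 members that passed the filter on low counts, 40 rose and 6 fell, 26.8% and 4.03%, while 19.2% of all genes tested rose and 21.6% fell (40.8% called in all). The log2 fold changes of the risers ran from 1.44 to 5.77 with a median of 2.68. Partners went the other way more often: of 180 tested, 24 rose and 53 fell, a split that turned to 42 and 33 without the length and GC trend, with a median of 0.03. The median log2 fold change was 0.68 over the members tested, -0.66 over partners and -0.20 over all genes. Groups did not overlap in CPM for 57 members that were higher (38.3%) and 22 that were lower (14.8%), against 23.5% and 30.3% of all genes. A member could pass the filter through its high group alone, so these counts describe the members that passed and not all 189. Other noncoding genes of GENCODE 29 gave 24.9% higher and 14.8% lower with a median of 0.25 (1211 tested), so a share of risers near that of the members was common to noncoding genes.

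Scaling and length bear on that split. By library totals alone, 22 members rose and 14 fell, 14.8% and 9.4%, against 8.77% and 26.1% of all genes. The median of all genes moved by -0.72 to -0.92. Relative to that median, members were at 0.83, against 0.88 with TMM scaling, so their direction is stated relative to all genes. With each library's trend on exon length and GC entered as an offset (the setting without the length and GC trend), 40 rose and 13 fell, 28 of the original risers among them. These were 26.8% and 8.72% of the members tested, against 26% and 18% of all genes. In that setting the share of members that rose was thus close to that of all genes, and the share that fell was lower. Members were 0.16 above the median of all genes. In the shortest of 4 length classes of genes tested, 75 to 2589 bases, 38.7% of all genes and 37.9% of members (39 of 103) rose, with medians of 1.09 and 1.30. In the next class, 2590 to 4476 bases, 21.6% of all genes and 1 of 31 members rose. No member of the 15 above that length rose. The risers had a median exon length of 1070.5 bases, and the 6 that fell 4963.5.

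**Figure D2:**
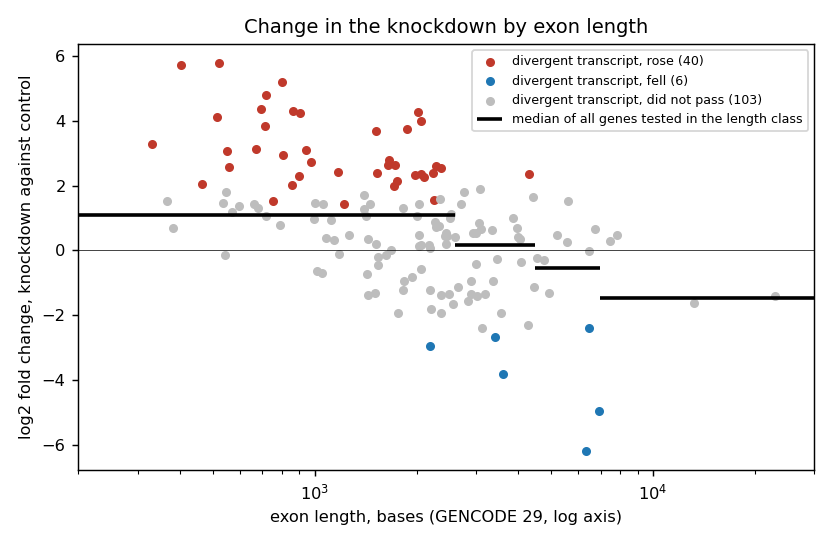
log2 fold change in the knockdown against exon length on a log axis for the 149 members tested. Black lines are the medians of all genes tested in each of 4 length classes (1.09, 0.16, -0.54 and -1.48); 39 of the 40 members that rose lie in the shortest class.

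The count also depended on single libraries. The share of all genes called in such fits is not given here, so whether the swing was particular to members is not shown. The count was 24 called members (20 higher, 4 lower) without control library 1, 30 without control library 3 and 78 (60 higher, 18 lower) without knockdown library 1. With knockdown libraries 2 and 3 left out it was 31, of which 26 were higher, and 23 of the 40 risers remained called. The median change of members was 0.56, 0.61 and 0.54 in knockdown libraries 1, 2 and 3 against the control mean, while that of partners was -0.18, -1.17 and -1.18. The median of all genes was -0.04, -0.38 and -0.41 in the same libraries. On TMM-scaled values the members' median was thus alike in all knockdown libraries. The medians of partners and of all genes were lower in libraries 2 and 3. Relative to all genes, members therefore stood higher in libraries 2 and 3 than in library 1. Among members whose span does not overlap the partner's, 28 of 101 rose and 3 fell.

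The largest rise was that of MBTPS1-DT (ENSG00000260018, chromosome 16, 84117051 to 84117571, plus strand), whose partner encodes a Golgi protease that releases membrane-bound transcription factors. Its counts were 7, 17 and 0 in control and 126, 276 and 184 in knockdown libraries. The log2 fold change was 5.77 ± 1.06 (SE, adjusted p = 0.00427, edgeR quasi-likelihood test, as for every adjusted p below unless another tool is named). MBTPS1 itself had 2897, 3008 and 3068 counts in control and 1141, 385 and 398 in knockdown libraries, and fell by 1.28 on the log2 scale (adjusted p = 0.0414). Neither gene's groups overlapped. The call of MBTPS1 was lost in 8 settings, among them that without the length and GC trend (-0.36, adjusted p = 0.31), and that of MBTPS1-DT in none of those run.

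GOLPH3-DT (chromosome 5, 32174471 to 32175272, plus strand) lies beside GOLPH3, a Golgi membrane protein. It had 26, 13 and 21 counts in control and 247, 395 and 342 in knockdown libraries, 0.846 ± 0.268 and 31.3 ± 13.4 CPM (SD, n = 3). All knockdown libraries were far above all controls, with a log2 fold change of 5.199 ± 0.657 (adjusted p = 0.00367). GOLPH3 had 2870, 2954 and 3091 counts in control and 1919, 329 and 349 in knockdown libraries, and its change of -0.95 did not pass (adjusted p = 0.191). Its knockdown libraries 2 and 3 were low and library 1 was not, and without library 1 the change was -1.67 (adjusted p = 0.00121).

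ZNF426-DT, beside the zinc-finger gene ZNF426, had 17, 31 and 17 counts in control and 198, 248 and 153 in knockdown libraries (4.30 ± 0.605, adjusted p = 0.00367). DCTN6-DT, beside a dynactin subunit gene, had 0, 4 and 1 and then 47, 53 and 36 (5.73 ± 0.908, adjusted p = 0.0037). YTHDF3-DT, beside the gene of a reader of methylated RNA, had 12, 14 and 7 and then 116, 159 and 140 (4.79 ± 0.645, adjusted p = 0.00367). In each of the 3 every knockdown library exceeded every control, and the control counts were low. None of the partners passed: the changes were -0.81 for ZNF426 (adjusted p = 0.451), -1.76 for DCTN6 (adjusted p = 0.0894) and -1.06 for YTHDF3 (adjusted p = 0.151). All of these partners were called as lower without knockdown library 1, at -2.42, -2.89 and -1.44 (adjusted p = 0.000983, 0.000713 and 0.0156). DCTN6 was also called by DESeq2 (-1.68, adjusted p = 0.0399), with the replicate block (-2.27, adjusted p = 0.00944) and in the fit of all 12 libraries (-1.71, adjusted p = 0.0283). With the trend removed ZNF426 and YTHDF3 turned to 0.74 and 0.85, and neither passed. Without the length and GC trend the rises of these members were 2.88, 3.93 and 2.99, smaller but still past the threshold (adjusted p = 0.00121, 0.00343 and 0.00119).

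In 15 of the 146 pairs with both genes tested the member rose and the partner fell, in 3 the member fell and the partner rose, in 6 both rose and in none did both fall. Of the 40 risers 15 thus had a partner that fell, and of the 103 members that did not pass 27 did. Among all partners tested 29.4% fell. Whether pairs moved apart more often than these shares give was not tested. The 18 pairs moving apart became 9 by library totals alone, 13 without the length and GC trend (7 and 6 in the respective directions) and 6 with knockdown libraries 2 and 3 left out. Leaving out single libraries gave 4 without control library 1 or 3, 8 without control library 2, 36, 8 and 9 without knockdown library 1, 2 or 3. The 6 pairs that rose together were those of DPP3-DT, MRPL20-DT, ODC1-DT, TMEM242-DT, TOLLIP-DT and UBL7-DT, named because they make up that count and chosen after their values were seen.

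The widest separation was in LRRC8D-DT and LRRC8D, a subunit of volume-regulated anion channels. LRRC8D-DT had 20, 5 and 10 counts in control and 71, 149 and 98 in knockdown libraries (4.35 ± 0.745, adjusted p = 0.00379). LRRC8D had 1717, 395 and 1860 and then 72, 26 and 10 (-4.32 ± 0.776, adjusted p = 0.00412). Every knockdown library was above every control for the divergent transcript and below every control for its partner. The within-library log2 ratio of member to partner, each count plus 1, went from -6.60 ± 0.712 to 1.88 ± 1.68 (SD, n = 3).

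CD2AP-DT is the shortest riser, with 330 exon bases, and sits beside the gene of an actin-linked scaffold protein. It had 5, 5 and 7 counts in control and 24, 36 and 19 in knockdown libraries (3.29 ± 0.666, adjusted p = 0.00541), while CD2AP had 2354, 996 and 2229 and then 76, 30 and 9 (-4.71, adjusted p = 0.00367). The member's call was lost without the length and GC trend (1.17, adjusted p = 0.113), and the partner's was not. With knockdown libraries 2 and 3 left out the member was at 2.69, and its call was lost there too. DOCK9-DT, beside a guanine nucleotide exchange factor gene, had 19, 34 and 6 and then 83, 73 and 59 counts (2.94, adjusted p = 0.0086), and DOCK9 fell by 3.75 (adjusted p = 0.0037; -1.45 and still called with the trend removed). The DOCK9-DT call was lost without control library 1 (adjusted p = 0.0534). SLC30A6-DT rose by 3.83 and PAPOLA-DT by 3.68 (adjusted p = 0.00463 and 0.00444), while SLC30A6, a zinc transporter, fell by 2.83 and PAPOLA, a poly(A) polymerase, by 2.58 (adjusted p = 0.0198 and 0.015). Both of these partner calls were lost with knockdown libraries 2 and 3 left out (-1.65 and -1.51) and without control library 3, and that of SLC30A6 also without control library 1 or knockdown library 2. Without the length and GC trend PAPOLA was at -0.05 (adjusted p = 0.898) and SLC30A6 at -1.21 (adjusted p = 0.0238). IL6ST-DT had 11, 2 and 8 and then 41, 8 and 18 counts (2.61, adjusted p = 0.0227) and IL6ST, the shared receptor of interleukin-6 type cytokines, fell by 3.67 (adjusted p = 0.00372), a call lost with the trend removed (-0.85, adjusted p = 0.197). The IL6ST-DT call was lost by library totals alone (1.94, adjusted p = 0.112) and without control library 1, 2 or 3 (adjusted p = 0.0696, 0.0645 and 0.0778). Groups did not overlap in TMM-scaled CPM for any of these genes. On library totals alone those of IL6ST-DT did, with 11 counts in control library 1 and 8 in knockdown library 2.

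**Figure D3:**
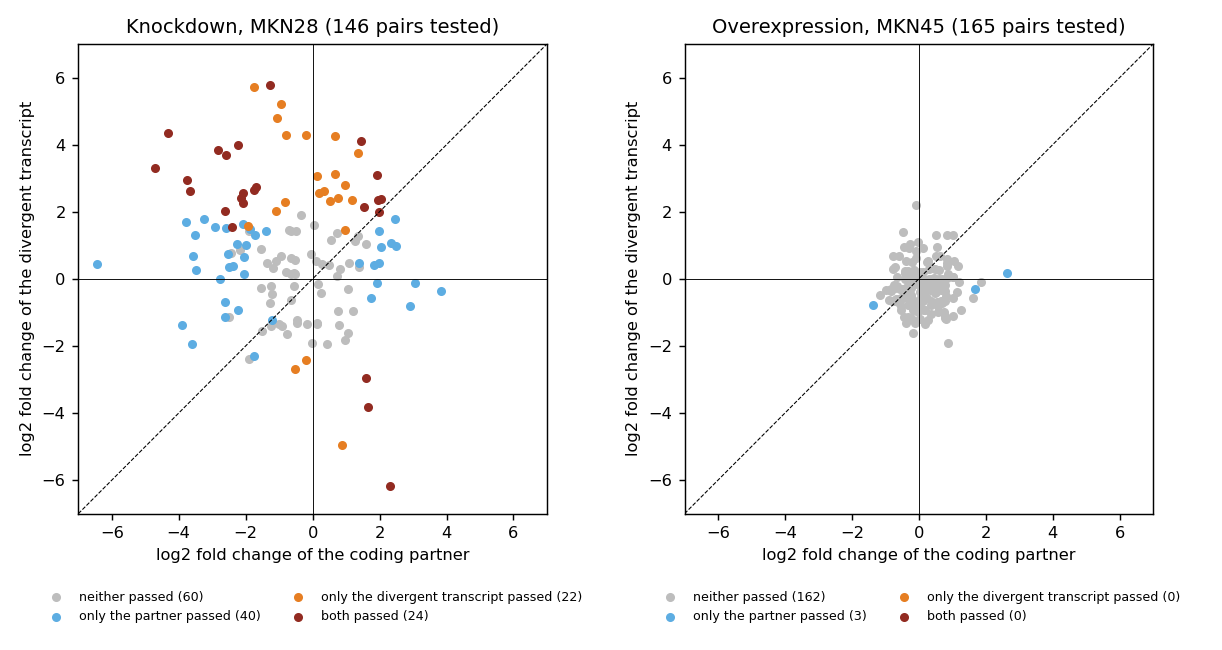
log2 fold change of each divergent transcript (vertical) against that of its coding partner (horizontal) for pairs with both genes tested, 146 in the knockdown and 165 in the overexpression. Colours show which gene passed adjusted p under 0.05; in the knockdown 15 pairs lie upper left with both passed and 3 lower right, and in the overexpression no divergent transcript passed.

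The 6 members that fell were longer. EOLA2-DT (chromosome X, 149938628 to 150224580, plus strand), beside a gene of an ASCH-domain protein, had 59, 24 and 97 counts in control and 1, 0 and 0 in knockdown libraries, a ratio of summed counts per total of 152 with a counting interval of 26.9 to 6030. It was nearly undetected in the knockdown (fitted log2 fold change -6.18, adjusted p = 0.00396). EOLA2 had 365, 608 and 433 and then 1123, 1240 and 907 counts and rose by 2.32 (adjusted p = 0.00556). The paralogous pair on the same chromosome moved likewise: EOLA1-DT had 76, 31 and 44 and then 2, 3 and 0 counts (-3.81, adjusted p = 0.00844), and EOLA1 rose by 1.67 (adjusted p = 0.0234). EOLA1 and EOLA2 are near-identical copies and the spans of both pairs overlap, so reads may have been split between them. The EOLA1-DT call was lost without control library 1 (adjusted p = 0.0504), and the EOLA1 call in 6 settings.

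CEBPA-DT, beside the gene of a transcription factor of epithelial and myeloid differentiation, had 60, 80 and 46 counts in control and 4, 3 and 4 in knockdown libraries. Every knockdown library was far below every control (-2.97 ± 0.653, adjusted p = 0.00714). CEBPA had 542, 668 and 436 and then 526, 1226 and 466 counts and rose by 1.58 after scaling (adjusted p = 0.043), a call lost in 9 settings, with 0.63 by library totals alone (adjusted p = 0.298). ZNF584-DT fell from 150, 164 and 135 counts to 12, 14 and 7 (-2.68, adjusted p = 0.00623), and ZNF584 did not pass (-0.54, adjusted p = 0.436). That pair's starts are 6980 bases apart and the member's span lies within the partner's, so it is no divergent pair by position.

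RNF139-DT, beside the gene of a ubiquitin ligase of the endoplasmic reticulum, had 104, 53 and 93 counts and then 4, 0 and 0 (-4.96, adjusted p = 0.00494). Its partner was split between libraries, with 1814, 1432 and 1847 counts in control and 5300, 340 and 161 in knockdown libraries (0.86, adjusted p = 0.457). COX10-DT, which starts 1 base from COX10, a gene of heme A synthesis, had 239, 98 and 228 counts and then 35, 15 and 6 (-2.41, adjusted p = 0.0149). Without the length and GC trend it was at -0.27 (adjusted p = 0.645), and it was also lost without control library 1 or 3 or with knockdown libraries 2 and 3 left out. The other 5 members that fell kept their call with that trend removed.

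Ratios within a library avoid scaling between libraries and could be formed for all 188 pairs. With 3 libraries against 3 the exact two-sided permutation test cannot go below p = 0.1 for a pair, so pairs were described by whether the groups overlapped. In the knockdown the median log2 ratio of member to partner was -5.03 with control virus and -3.60 with the siRNA, with a median change of 1.20. The ratio was higher without overlap in 78 pairs (41.5%) and lower in 24 (12.8%). Among 426 other pairs of a noncoding and a coding gene on opposite strands with starts within 2000 bases, the shares were 48.1% and 13.6% (61.7% in all) and the median change 1.30. Both shares and the median change of the members were thus below those of the other close pairs, a difference that was not tested. By library the median ratio was -4.76, -4.87 and -5.22 for control and -3.90, -3.40 and -2.99 for knockdown libraries. Among the 131 pairs with separate spans, 57 were higher and 15 lower.

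**Figure D4:**
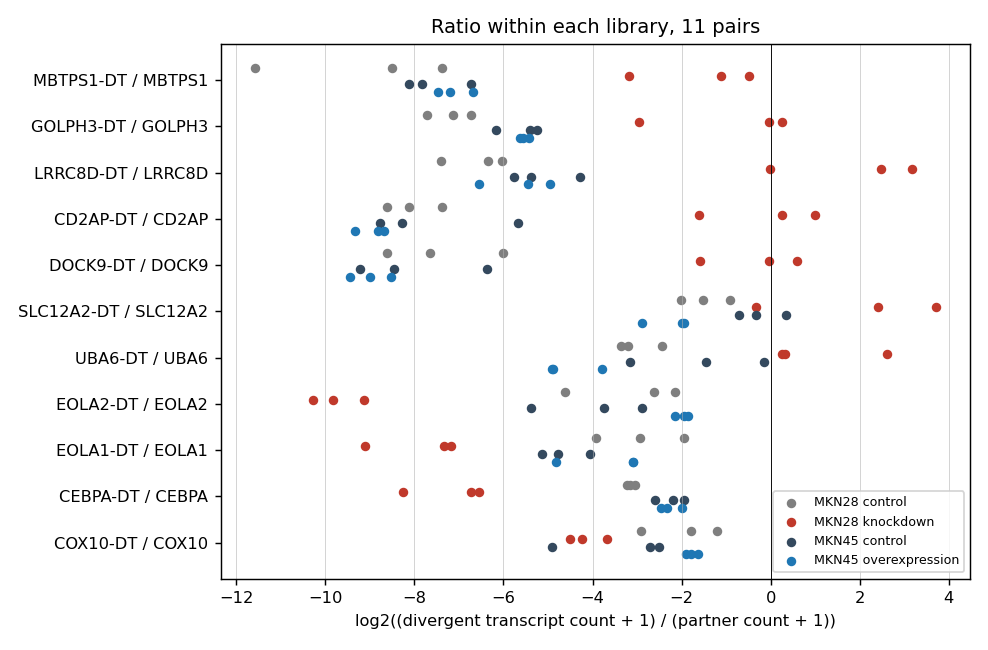
log2 ratio of divergent transcript to partner, (count + 1) over (count + 1), in each of the 12 libraries for 11 pairs. Points are libraries coloured by group; knockdown libraries lie to the right of MKN28 controls for MBTPS1-DT to UBA6-DT and to the left for EOLA2-DT to COX10-DT.

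Across the 146 tested pairs, the log2 fold changes of member and partner had a Pearson r of -0.151 and a Spearman rho of -0.12 in the knockdown, and 65 pairs (44.5%) had the same sign. Genes of a pair share libraries and scaling, and pairs are not replicates, so this is a description. The other close pairs gave an r of -0.021 (352 pairs) and 46.0% of the same sign.

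Among the members with the highest mean CPM over all libraries, SLC12A2-DT lies beside the gene of a sodium, potassium and chloride cotransporter. It had 250, 204 and 172 counts in MKN28 controls, 104, 122 and 65 in the knockdown, 800, 466 and 712 in MKN45 controls and 663, 831 and 747 with overexpression. Its change did not pass in either arm (-0.02, adjusted p = 0.982, and -0.10, adjusted p = 0.801). Without the length and GC trend both values passed, the knockdown value turning to 2.44 (adjusted p = 0.0111) and the overexpression value to -0.88 (adjusted p = 0.0488). The partner moved more: SLC12A2 had 717, 384 and 701 and then 130, 22 and 4 counts in MKN28 (-2.77, adjusted p = 0.0264), and 1305, 366 and 901 and then 4884, 3191 and 2990 in MKN45 (1.86, adjusted p = 0.0506). The ratio of member to partner therefore went from -1.48 to 1.94 with the knockdown and from -0.23 to -2.27 with overexpression, without overlap in either arm. The knockdown call of SLC12A2 was lost with the trend removed (-0.71, adjusted p = 0.231) and in 4 settings that left out libraries. Its MKN45 value was called by DESeq2 (1.87, adjusted p = 0.000115), with no filter on low counts (adjusted p = 0.0116) and with the trend removed (1.28, adjusted p = 0.0206). It was also called without MKN45 control library 1 or 2 (adjusted p = 0.0428 and 0.0148).

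UBA6-DT, beside a ubiquitin-activating enzyme gene, had 286, 297 and 335 counts in MKN28 controls, 332, 108 and 127 in the knockdown, 127, 208 and 325 in MKN45 controls and 52, 118 and 53 with overexpression. It passed in neither arm (0.26, adjusted p = 0.699, and -1.91, adjusted p = 0.0623), although in MKN45 all overexpression libraries were below all controls. With the trend removed both values passed, at 1.95 in the knockdown (adjusted p = 0.00423) and -2.38 with overexpression (adjusted p = 0.0317). The MKN45 value was also called by DESeq2 (-1.92, adjusted p = 0.00121), with no filter on low counts (adjusted p = 0.0244) and without MKN45 control library 1 (adjusted p = 0.0427). UBA6 had 2947, 1626 and 3089 and then 279, 86 and 20 counts in MKN28 (-3.49, adjusted p = 0.00569; -0.95 and still called with the trend removed). The log2 ratio moved from -3.004 to 1.06 with the knockdown and from -1.59 to -4.52 with overexpression. MAP4K3-DT, beside a kinase gene of amino acid signalling, gave -3.15 and -0.36 in MKN28 and -0.71 and -2.31 in MKN45. Its own change passed in both arms only with the trend removed, at 2.97 (adjusted p = 0.00797) and -1.17 (adjusted p = 0.0346). MAP4K3 itself was at -2.05 in the knockdown (adjusted p = 0.0143) but at 0.03 with the trend removed (adjusted p = 0.948).

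GARS1-DT is a long member, with 22965 exon bases, beside the glycyl-tRNA synthetase gene. It had 212, 104 and 243 counts in MKN28 controls, 65, 17 and 26 in the knockdown, 234, 128 and 265 in MKN45 controls and 520, 536 and 497 with overexpression. The groups did not overlap in either line, but neither change passed (-1.42, adjusted p = 0.0761, and 1.03, adjusted p = 0.0709), and the first turned to 1.00 with the trend removed (adjusted p = 0.0664). The knockdown value was called by library totals alone (-2.10, adjusted p = 0.049), in the fit of all 12 libraries and without knockdown library 1, and the overexpression value by DESeq2 (adjusted p = 0.00866) and without MKN45 control library 2. BAIAP2-DT, beside the gene of an actin and membrane scaffold, ZFAND2A-DT, beside a stress-induced zinc-finger gene, and TNFRSF10A-DT, beside a TRAIL receptor gene, did not pass in either arm. Their knockdown changes were -0.30, 1.05 and 0.54 and their overexpression changes -0.01, -0.33 and -0.40. In the knockdown BAIAP2-DT was called with the trend removed (-0.85, adjusted p = 0.0287), and ZFAND2A-DT by DESeq2 (1.20, adjusted p = 0.0383), in the fit of all 12 libraries (adjusted p = 0.0191) and without knockdown library 1 (adjusted p = 0.0376). TNFRSF10A-DT shares 1125 exon bases with another identifier of the same symbol, so its counts may be split.

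The second comparison asked what raising ZNF165 did in MKN45. No member passed among 169 tested, while 1.13% of all genes did, 0.935% higher and 0.196% lower. Groups did not overlap in CPM for 11 members that were higher (6.51%) and 33 that were lower (19.5%), against 19.4% and 18.7% of all genes. At an unadjusted p under 0.05 there were 30 members, 17.8% of those tested against 26.8% of all genes, and DESeq2 called 9, 3 higher and 6 lower, against 11.6% of all genes. The median log2 fold change was -0.29 over members and 0.09 over partners, with all genes at 0.00, and 50 members were above 0. The median over members was -0.25, -0.16 and -0.09 in the overexpression libraries against the control mean. In the shortest length class all genes were at -0.28 and the 111 members in it at -0.31. Among partners 2 rose and 1 fell, and 0 passed with the replicate block.

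The pair ratios moved down in this arm. The median log2 ratio was -4.49 in the controls and -4.85 with overexpression, with a median change of -0.43. Without overlap, 47 pairs (25%) were lower and 14 (7.45%) higher, against 17.8% and 11.3% (29.1% in all) of the 426 other close pairs, whose median change was -0.17. By library the medians were -4.61, -4.29 and -4.44 in the controls and -5.00, -4.62 and -4.82 with overexpression, without overlap. Among the 131 pairs with separate spans 34 were lower and 9 higher. No test of the difference between the members and the other pairs was made.

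A fit of all 12 libraries asked whether the effect of lowered and of raised ZNF165 mirrored each other, by testing the sum of both log2 fold changes against 0. Of 189 members, 23 had a sum above 0 and 6 below 0, 12.2% and 3.17%, against 8.09% and 9.38% of all genes (17.5% called in all). By library totals alone the split was 16 and 17, 8.47% and 8.99%, against 3.57% and 14.5% of all genes. Fewer members passed with knockdown libraries 2 and 3 left out. For MIOS-DT, beside a gene of amino acid sensing, counts were 62, 40 and 82 in MKN28 controls, 238, 196 and 122 in the knockdown, 33, 20 and 27 in MKN45 controls and 63, 51 and 44 with overexpression. It was higher in both perturbed groups, by 2.63 (adjusted p = 0.00564) and by 0.69 (adjusted p = 0.179), with a sum of 3.39 ± 0.536 (adjusted p = 0.0035). TBC1D22A-DT, beside a gene of the Rab GTPase-activating family, had 77, 103 and 73 and then 485, 200 and 380 counts in MKN28 (3.14, adjusted p = 0.00389; 1.73 and still called with the trend removed) and 55, 47 and 37 and then 65, 59 and 53 in MKN45 (0.05, adjusted p = 0.931). SLC20A1-DT, beside a phosphate transporter gene, had 2, 0 and 5 and then 17, 24 and 24 in MKN28 (4.27, adjusted p = 0.00694, lost with knockdown libraries 2 and 3 left out) and 11, 15 and 17 and then 30, 52 and 33 in MKN45 (1.09, adjusted p = 0.129).

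The control libraries allowed the lines themselves to be compared, and they are the same libraries that served as controls above. Of 174 members tested, 46 were higher in MKN45 and 15 lower, 26.4% and 8.62%, against 21.4% and 20.4% of all genes (41.8% called in all). Without the length and GC trend the split was 35 and 30, 20.1% and 17.2%, against 23.1% and 31.0% of all genes. Without MKN28 control library 1 the split was 32 and 8, and the share of all genes in that fit is not given here. Groups did not overlap in CPM for 65 members that were higher (37.4%) and 24 that were lower (13.8%), against 26.9% and 25.4% of all genes. A member could meet the summed count and pass the filter through its high line alone, so these counts describe the members that passed. The members' median log2 difference, MKN45 minus MKN28, was 0.54, that of partners -0.18 and that of all genes -0.04. The pair ratio was higher in MKN45 without overlap in 65 pairs (34.6%) and lower in 17 (9.04%), against 27.0% and 13.1% (40.1% in all) of the other close pairs.

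The differences of member and partner between lines were correlated. Across 171 tested pairs the differences between lines had a Pearson r of 0.809 and a Spearman rho of 0.502, a description across pairs that share libraries, and the other close pairs had 0.634 and 0.455 (364 pairs). Members with 0 counts in MKN28, such as C2orf74-DT and IRX2-DT, were included through MKN45 alone. Such pairs differ strongly in both genes and weigh more on r than on rho. The same sign was seen in 108 pairs (63.2%), against 62.6% of the other close pairs. Of the 46 members higher in MKN45, 29 had a partner that did not pass, and 4 of the 15 lower ones did. In 16 pairs both genes were higher in MKN45 and in 8 both lower. In 4 pairs they went apart, those of TMEM123-DT, MRPS30-DT, NUDT19-DT and PGLS-DT. The first 2 of these are named because they complete the count, chosen after their values were seen. The starts of TMEM123-DT and TMEM123 are 17465 bases apart and the member's span lies within the partner's. It is thus no divergent pair by position, and with 126 shared exon bases its counts may be mixed.

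Some pairs were at or near 0 counts in 1 of the lines. C2orf74-DT had 0 counts in all 6 MKN28 libraries, which allows up to 0.161 to 0.248 CPM, and 300, 188 and 255 in the MKN45 controls, at least 271-fold higher (floor of 3 counts over the group, on library totals). C2orf74 had 0, 0 and 2 and then 288, 153 and 394. IRX2-DT had 0 counts in MKN28 and 125, 197 and 146 in MKN45, at least 171-fold higher, and IRX2, a homeobox transcription factor, was at least 254-fold higher. Both genes of each pair were thus near or at 0 in the same line.

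PCCA-DT had 142, 142 and 123 counts in MKN45 and was at least 149-fold higher, and PCCA, a subunit of propionyl-CoA carboxylase, had a ratio of 402 with a counting interval of 137 to 1950. HK2-DT had 87, 79 and 61 counts in MKN45 and none in MKN28, at least 82.9-fold higher. HK2, a hexokinase of glycolysis, had 12, 10 and 12 and then 5151, 2732 and 2883 counts (8.51 on the log2 scale, adjusted p = 2.01e-07). PRKACB-DT had 43, 31 and 47 counts, at least 44.2-fold higher, beside PRKACB, a catalytic subunit of protein kinase A, at 9.54 (adjusted p = 8.95e-07). In the reverse direction APCDD1L-DT had 113, 83 and 40 counts in MKN28 and 2, 2 and 0 in MKN45 (-5.51, adjusted p = 0.000117), and APCDD1L had 49, 62 and 25 against 0 in every MKN45 control, at least 41.4-fold lower.

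**Figure D5:**
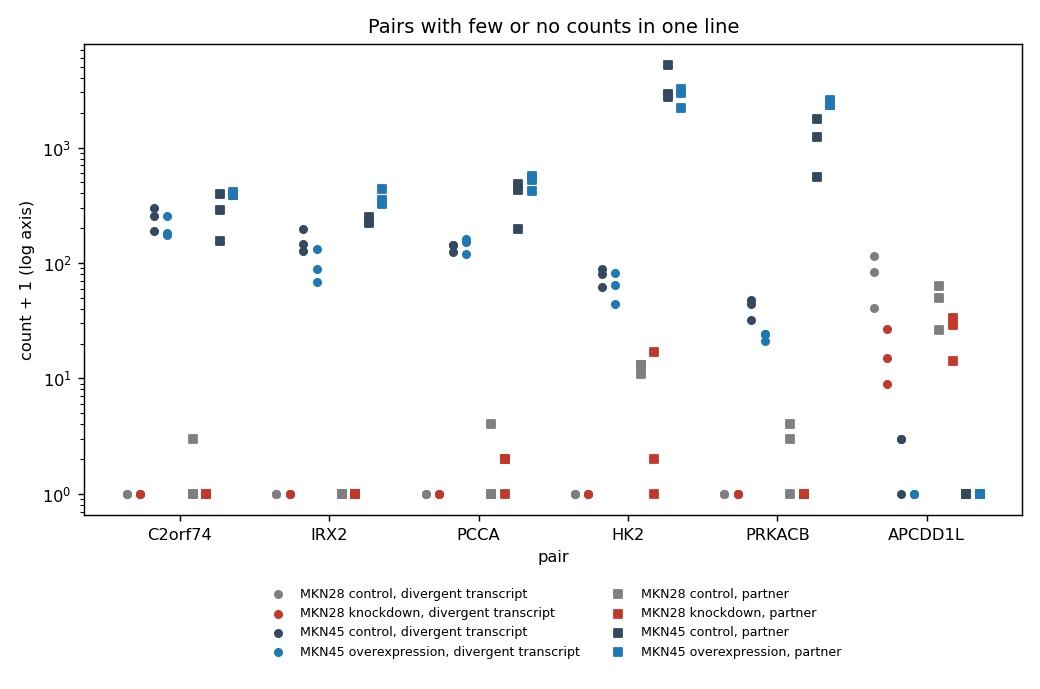
Counts plus 1 on a log axis for 6 pairs in all 12 libraries. Circles are divergent transcripts and squares their partners, coloured by group; for C2orf74, IRX2, PCCA, HK2 and PRKACB the divergent transcript is at 0 counts in every MKN28 library, and for APCDD1L the partner is at 0 in every MKN45 library.

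Other lower members in MKN45 were BAIAP2-DT, with 704, 848 and 534 counts in MKN28 and 229, 214 and 122 in MKN45 (-1.61, adjusted p = 0.00555; BAIAP2 -2.23, adjusted p = 0.000292), EOLA1-DT (-2.83, adjusted p = 0.00221) and RNF139-DT (-2.63, adjusted p = 0.00775). In each of these pairs the partner was lower too. The call of EOLA1 was lost in every fit that left out a single library (adjusted p = 0.0542 to 0.148). It was also lost with no filter on low counts (-0.96, adjusted p = 0.0765). NUDT19-DT had 127, 110 and 87 counts in MKN28 and 20, 21 and 33 in MKN45 (-1.87, adjusted p = 0.00502), while NUDT19, a coenzyme A hydrolase, was higher by 1.10 (adjusted p = 0.0221). PGLS-DT had 33, 23 and 26 and then 5, 2 and 12 counts (-1.87, adjusted p = 0.025), while PGLS, an enzyme of the pentose phosphate pathway, was higher by 1.28 (adjusted p = 0.0208). Both of these partner calls and that of PGLS-DT were lost when some single libraries were left out. SLC12A2-DT was higher in MKN45 by 1.89 (adjusted p = 0.000712) and MAP4K3-DT by 1.85 (adjusted p = 0.00468), with all MKN45 controls above all MKN28 controls.

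Genes whose products act on promoter-antisense RNA were read from 6 lists, to be set against 19.2% of all genes higher and 21.6% lower in the knockdown. All genes had medians of -0.54 and -1.48 in the 2 longer length classes, and the lists were not compared within length classes. In the knockdown the nuclear exosome core had 3 of 13 genes higher, 1 lower and 9 that did not pass, with a median log2 fold change of 0.14. EXOSC6, EXOSC5 and EXOSC4, ring subunits, rose by 3.35, 2.95 and 2.79 (adjusted p = 0.00372, 0.0102 and 0.00835). With the trend removed these were 4.70, 1.06 and 1.04, and the calls of EXOSC5 and EXOSC4 were lost with knockdown libraries 2 and 3 left out (0.94, adjusted p = 0.239, and 1.06, adjusted p = 0.14). The EXOSC5 call was also lost without control library 1 or 3. DIS3, a catalytic subunit, was at -2.56 (adjusted p = 0.00645) but at 0.03 without the length and GC trend (adjusted p = 0.955). Of the exosome adaptors of the NEXT and PAXT complexes 1 of 6 rose and 3 fell, with a median of -1.58. MTREX, their helicase, fell from 2269, 1657 and 2647 counts to 165, 83 and 19 (-3.72, adjusted p = 0.00379; -1.68 and still called with the trend removed). ZFC3H1 was at -2.89 (adjusted p = 0.00745, lost with the trend removed), PABPN1 at 1.69 (adjusted p = 0.0174, lost by library totals) and ZCCHC8 at -1.80 (adjusted p = 0.0478; 0.09 with the trend removed).

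The cap-binding and restrictor list had 1 gene higher and 2 lower of 6, with NCBP1 at -3.57 (adjusted p = 0.005), SRRT at 1.64 (adjusted p = 0.0182, lost by library totals) and NCBP2 at -1.999 (adjusted p = 0.00778; 0.00 with the trend removed). Integrator, which ends short transcripts at promoters, had 1 of 14 higher and 7 lower with a median of -1.12, among them INTS2 at -3.77 and INTS3 at -2.41 (adjusted p = 0.0037 and 0.00514) and INTS6 at -2.63 (adjusted p = 0.00902; 0.52 with the trend removed). Of the U1 snRNP proteins 2 of 6 rose and 1 fell: SNRPC was at 2.56, SNRPA at 1.86 and LUC7L3 at -3.41 (adjusted p = 0.00379, 0.0209 and 0.00514). The SNRPA call was lost by library totals alone (0.93, adjusted p = 0.131), with the trend removed (0.51, adjusted p = 0.166), with knockdown libraries 2 and 3 left out (0.56, adjusted p = 0.435) and without control library 1 or 3 or knockdown library 2 or 3. With the trend removed NCBP1, INTS2, INTS3, SNRPC and LUC7L3 kept their calls at -1.93, -1.40, -1.39, 1.69 and -1.06. Of 16 cleavage and polyadenylation genes 1 rose and 4 fell, namely CPSF2, CPSF3, CSTF3 and PCF11 at -2.98, -2.10, -1.83 and -1.70, and each lost its call with the trend removed, PCF11 turning to 0.62. In the overexpression arm 2 genes of the 6 lists passed, LUC7L3 at 1.75 and CPSF6 at 1.35 (adjusted p = 0.0429 and 0.0396), and both calls were lost with the replicate block (adjusted p = 0.0866 and 0.0868). Whether these genes bear on the divergent transcripts was not tested.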

How the data were processed

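RNA-seq read counts were analysed for 189 divergent promoter transcripts and their partners in 12 libraries. The deposited table holds whole-number counts, a row for each Ensembl identifier and a column for each library, per the file headers. HISAT2 and StringTie were used per the submitters' processing notes, without versions. Build, annotation, counting step and strand use were not given in the sources used here, and StringTie can export estimated counts, so partial strand mixing or rounding may be part of each count.

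Symbols were found for 49659 of 50868 identifiers, and 50111 were in GENCODE 29 (GRCh38), which supplied positions, biotypes, exon lengths and GC content. Promoter windows came from RefSeq. Every count was tested with edgeR 4.0.16 in R 4.3.3 (glmQLFit, glmQLFTest, TMM, filterByExpr with a minimum count of 10 and total of 15), adjusted by Benjamini-Hochberg over all genes tested, with a threshold of 0.05. Each arm and the controls of both lines were fitted on their own 6 libraries, and the sum of both arms' changes on all 12. Pair ratios used a pseudocount of 1. CPM values with an SD, and those that decided whether groups overlap, were scaled by TMM within their comparison. Floors, levels per length and minimum folds used library totals. Floors and counting intervals cover counting error only. The trend on length and GC was fitted with mgcv 1.9.3, and DESeq2 1.42.0 was an alternative. The fits were tested on simulated data.

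Genes named are the 8 members with the highest mean CPM, up to 6 rising and 6 falling members per arm by fold change, up to 8 pairs per arm that moved apart, up to 5 members higher and 5 lower in MKN45, up to 6 past the test of the sum, their partners, ZNF165, and at most 4 genes per list and arm. Some genes under this rule are not reported here. Those chosen by fold change also needed an adjusted p under 0.05, a log2 fold change of 1 or more in size, groups that do not overlap and a mean of at least 1 CPM in a group. The 6 lists were nuclear exosome core, exosome adaptors, cap-binding and restrictor, Integrator, U1 snRNP proteins, and cleavage and polyadenylation. Members, lists and tests were chosen with earlier results of these data known. Replicate numbers were checked by the correlation of deviations from group means. Same-numbered control libraries of the 2 lines gave 0.232, 0.464 and 0.259, so by a minimum of 0.1 the numbers were taken as pairing them, from the data and not from a label. MKN28 control 1 with MKN45 control 3 gave 0.118, and MKN28 control 3 with MKN45 control 1 gave 0.235. The minimum therefore does not separate replicates 1 and 3. The main fit of the lines did not use the pairing. Within the arms the numbers did not pair.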

Additional observations from a re-analysis of the deposited data

Results flagged for a closer look

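In 6 members the knockdown and the overexpression changes did not mirror each other, by the test of their sum in the fit of all 12 libraries (edgeR quasi-likelihood test, the 6 smallest p among the 29 members past the threshold, against 17.5% of all genes). The sum of both log2 fold changes was 5.45 for GOLPH3-DT, 5.44 for SLC20A1-DT, 4.38 for LRRC8D-DT, 4.36 for ZNF426-DT, 3.39 for MIOS-DT and 3.22 for TBC1D22A-DT, with adjusted p = 0.000934, 0.00533, 0.00533, 0.00338, 0.0035 and 0.00525. In each the knockdown change in MKN28 was the larger part, and none passed in the overexpression arm of MKN45. ZNF426-DT had 6, 10 and 9 counts in the MKN45 controls and 13, 10 and 9 with overexpression, so a change there was hardly detectable at this depth. The sum shares no library between its parts, and it mixes the line with the direction of the perturbation, which cannot be told apart.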

How the results depend on the processing

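Shares of all genes called are not given here for fits with libraries left out or for all 12 libraries in one fit. Members called in the knockdown numbered 46, and 84 with all 12 libraries in one fit, 10 of 26 tested at a summed count of at least 1000, and 24 to 78 when single libraries were left out. In the overexpression arm 0 became 9 with DESeq2, 2 without a filter on low counts, 8 with the length and GC trend removed, and 0 to 2 when single libraries were left out. Between lines 61 became 40 to 62, the lowest without MKN28 control library 1. For the sum of both arms 29 became 18 with knockdown replicates 2 and 3 left out and 17 to 65 when single libraries were left out, lowest without MKN45 control library 1 and highest without knockdown library 1. Partners called in the knockdown numbered 77 (24 higher, 53 lower), and 116 in the fit of all 12 libraries, 39 with knockdown replicates 2 and 3 left out and 31 to 135 when single libraries were left out, with splits of 8 and 55 by library totals alone and 42 and 33 with the trend removed. Partners in the overexpression arm numbered 3, and 25 with DESeq2, 6 without a filter, 20 with the trend removed, 0 in the fit of all 12 libraries, 0 with the replicate block and 0 to 18 when single libraries were left out. Pairs moving apart numbered 18, and 9 by library totals, 33 in the fit of all 12 libraries, 6 with knockdown replicates 2 and 3 left out and 4 to 36 when single libraries were left out. Pair ratio counts, of pairs whose groups do not overlap, stayed within 1.5 times with the pseudocount of 0.5. When single libraries were left out they were 108 to 133, 70 to 87 and 93 to 110 in the knockdown, the overexpression and the lines. Leaving out a library can only keep or add such pairs, so these ranges do not test the counts. The ratios use raw counts within a library, so scaling could not change them. The length and GC trend was not removed from the ratios. In the knockdown a direction turned with the trend removed for the called MAP4K3 (0.03), DIS3 (0.03), ZCCHC8 (0.09), NCBP2 (0.0), INTS6 (0.52) and PCF11 (0.62) and, without a call before, SLC12A2-DT (2.44), GARS1-DT (1.0), YTHDF3 (0.85), ZNF426 (0.74), SLC20A1 (0.67) and TNFRSF10A (-0.2), and RNF139 ranged from -1.35 without knockdown replicate 1 to 1.4 without replicate 3. The cause of these changes was not tested. With the replicate block 46 members were called in the knockdown (36 higher, 10 lower) and 64 between lines, where all 61 original calls were kept and SLC12A2, GARS1 and TNFRSF10A became called as higher in MKN45 (adjusted p = 0.0279, 0.0152 and 0.0427). In the knockdown the block kept 36 of 40 risers, and same-numbered libraries correlated at 0.238, 0.372 and -0.305, and in MKN45 at -0.063, -0.052 and 0.051, so the numbers are shared names there. With 3 libraries a group and most members at low counts, changes of low members were often not detectable.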
